A study of Mus musculus with 4 samples.

Results

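Chromatin accessibility of the newborn mouse hippocampus was profiled by ATAC-seq, in which the transposase Tn5 cuts accessible DNA and the cut sites are sequenced, and the regions described here are those with a peak in both cKO lists and in neither Ctrl list. Peaks of the 4 deposited lists were merged wherever they overlapped by at least 1 bp, which gave 58652 regions, 56723 of them on autosomes. Of the autosomal regions, 393 had a peak in both cKO replicates and in no Ctrl replicate, 0.693% of the total. These 393 cKO-only regions were chosen by peak presence in the same 4 lists, so their absence from Ctrl is what selected them and is no result. For comparison, 257 autosomal regions (0.453%) had a peak in Ctrl replicate 1 and cKO replicate 1 only, and this pattern across genotypes is the one the regions are compared with below. It is 1 of 4 such patterns, and the others were larger than the cKO-only set or close to it. A peak in Ctrl replicate 1 and cKO replicate 2 only was held by 15476 regions (27.3%), in Ctrl replicate 2 and cKO replicate 1 only by 524 (0.924%), and in the second replicate of each genotype only by 387 (0.682%). A peak in both Ctrl lists only was held by 163 regions (0.287%).

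The cKO samples (2 libraries) carried the genotype Kdm2bEmx1-delta-CxxC, in which Emx1-Cre deletes the exon for the CxxC zinc finger of KDM2B, and the Ctrl samples (2 libraries) were Kdm2bfl/+ or Kdm2bfl/fl, without a statement of which library had which. All were taken at postnatal day 0, and no other treatment is given. Emx1-Cre acts in the dorsal telencephalic lineage, so interneurons, vessels and other cells of the dissected tissue keep the intact allele. The titles and the protocol name hippocampus while the source field names neural progenitor cells, and neither the sex, the litter nor the number of pooled animals is given. In bulk tissue, a larger share of a cell type and more accessible DNA per cell cannot be told apart.

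KDM2B reads unmethylated CpG islands (CGIs) through its CxxC zinc finger and brings a variant of the Polycomb complex PRC1 to them, which ubiquitinates histone H2A. Polycomb-bound CGI promoters of developmental genes are kept silent in this way. Regions away from promoters include enhancers, which are bound by transcription factors such as the proneural basic helix-loop-helix proteins at E-boxes, with the letters CANNTG.

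The 4 lists were unequal. They held from 7037 (Ctrl replicate 2) to 46389 peaks (Ctrl replicate 1). The depth recovered from the deposited values ran the other way. It was lowest in Ctrl replicate 1 (14.6 M fragments, M for mega) and highest in Ctrl replicate 2 (29.6 M). The shortest list thus came from the library with the greatest recovered depth, and the cause was not tested. Ctrl replicate 2 stood apart from the other lists. Of its peaks, 60.6% were repeat-masked (at least 50% of bases soft-masked in the reference), against 5.37 to 14.7% in the other lists, and a promoter peak was found in Ctrl replicate 2 for 0 of 21 hippocampal neuron genes, against 16 in the other Ctrl list and 9 and 15 in the lists of cKO replicates 1 and 2. Absence from Ctrl therefore rests mostly on Ctrl replicate 1. Without Ctrl replicate 2, 855 autosomal regions had peaks in both cKO lists only, and 54.6% of these were repeat-masked. Without Ctrl replicate 1, the number was 15239.

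The sequences of 13 cKO-only regions are shown because these led the set by rank, the 10 strongest regions and the 3 strongest at promoters of protein-coding genes. They are not a sample of all 393. Each is the plus strand from 75 bp before to 75 bp after the summit (GRCm38.p6, RefSeq), and capitals mark E-boxes (CANNTG), found in 9 of the 13, with CAGATG on either strand in 6.
Strongest region, mitochondrial-like, chr6:9889927-9890077: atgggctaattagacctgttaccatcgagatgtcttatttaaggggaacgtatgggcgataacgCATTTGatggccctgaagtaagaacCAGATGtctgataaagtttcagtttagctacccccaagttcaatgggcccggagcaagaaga
Tmtc2 intron, CpG-rich, chr10:105238382-105238532: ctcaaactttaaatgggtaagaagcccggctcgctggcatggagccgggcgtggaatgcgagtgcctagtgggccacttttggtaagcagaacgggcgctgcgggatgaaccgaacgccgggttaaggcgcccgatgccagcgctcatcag
Near Znrf4, chr17:56509759-56509909: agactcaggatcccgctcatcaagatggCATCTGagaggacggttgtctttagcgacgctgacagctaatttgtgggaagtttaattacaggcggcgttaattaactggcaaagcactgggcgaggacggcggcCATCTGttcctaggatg
Near Lrrc55, chr2:85213857-85214007: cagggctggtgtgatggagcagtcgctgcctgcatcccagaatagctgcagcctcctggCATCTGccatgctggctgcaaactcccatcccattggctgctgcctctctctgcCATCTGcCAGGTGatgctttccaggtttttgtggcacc
Near Sstr1, chr12:58208132-58208282: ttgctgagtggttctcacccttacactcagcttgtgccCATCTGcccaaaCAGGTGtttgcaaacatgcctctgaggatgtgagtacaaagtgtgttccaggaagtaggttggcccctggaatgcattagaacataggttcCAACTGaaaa
Intergenic, Gm9376 nearest, chr14:118317456-118317606: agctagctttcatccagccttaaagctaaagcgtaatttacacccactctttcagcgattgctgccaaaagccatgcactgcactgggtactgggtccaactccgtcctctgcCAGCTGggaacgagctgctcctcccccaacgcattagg
Intron of Tenm2, chr11:36804739-36804889: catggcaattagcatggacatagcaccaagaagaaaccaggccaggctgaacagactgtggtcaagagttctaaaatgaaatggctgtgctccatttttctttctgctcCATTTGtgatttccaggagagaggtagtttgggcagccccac
Intergenic and repeat-masked, Mtpn nearest, chr6:35940170-35940320: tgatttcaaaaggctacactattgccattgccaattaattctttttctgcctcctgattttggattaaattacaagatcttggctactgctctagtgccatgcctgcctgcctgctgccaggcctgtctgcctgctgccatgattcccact
Intron of Gm16046, near Afdn, chr17:13681234-13681384: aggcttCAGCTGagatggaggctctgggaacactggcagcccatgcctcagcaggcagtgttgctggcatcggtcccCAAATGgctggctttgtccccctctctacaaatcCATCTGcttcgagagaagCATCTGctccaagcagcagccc
Intron of Gm28050, Barhl2 nearest, chr5:106527597-106527747: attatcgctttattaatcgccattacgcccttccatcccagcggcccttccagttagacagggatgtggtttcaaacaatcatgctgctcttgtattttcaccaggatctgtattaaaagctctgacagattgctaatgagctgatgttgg
Shroom3 promoter, chr5:92897815-92897965: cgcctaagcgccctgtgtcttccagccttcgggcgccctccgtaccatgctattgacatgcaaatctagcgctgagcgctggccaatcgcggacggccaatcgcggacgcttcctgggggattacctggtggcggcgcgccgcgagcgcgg
Brpf3 promoter, chr17:28823125-28823275: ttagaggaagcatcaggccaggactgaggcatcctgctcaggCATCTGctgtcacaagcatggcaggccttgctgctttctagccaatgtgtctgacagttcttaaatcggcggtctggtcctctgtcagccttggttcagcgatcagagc
Gmnc promoter, chr16:26989665-26989815: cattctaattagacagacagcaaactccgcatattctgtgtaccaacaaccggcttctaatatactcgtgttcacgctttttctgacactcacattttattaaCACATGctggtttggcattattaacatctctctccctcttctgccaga

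The strongest cKO-only region was a short intergenic stretch of chromosome 6 (chr6:9889950-9890149, 200 bp). Its summit held 266 fragments in cKO replicate 1 and 258 in replicate 2, which placed it at rank 39 and rank 35 by the deposited −log10 p. All 200 bp aligned to the mitochondrial genome (positions 15660 to 15859) with 99% identity, and the window of 100 bp on either side of its summit had 6 matches in the nuclear genome at 90% identity or more, its own place included. It was 33015 bp from the nearest Ctrl peak and 282852 bp from the nearest transcription start site (TSS). This was the only cKO-only region with a mitochondrial match. Whether mitochondrial reads contributed to it was not tested.

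The second region by rank also lay in sequence with several copies. It was a 220 bp stretch at a CGI in an intron of Tmtc2, which encodes a mannosyltransferase (chr10:105238325-105238544), with 70 fragments in cKO replicate 1 and 35 in replicate 2, and its summit window had 9 matches in the genome, its own place included. Its rank was 116 in the former but 7047 in the latter, so that the 2 replicates placed it far apart. Fragments from the 9 places may not be told apart, and whether the sequence is a copy of ribosomal DNA was not tested, so its depth is not evidence of accessibility at Tmtc2.

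The next regions were single-copy and distal. A region 2597 bp from the TSS of Znrf4, a RING finger ubiquitin ligase gene (chr17:56509482-56509958), held 31 fragments in cKO replicate 1 and 78 in replicate 2. The window at its summit contained CATCTG, the reverse complement of the proneural E-box CAGATG, at 2 places. A region 16735 bp from Lrrc55, which encodes an auxiliary subunit of BK potassium channels (chr2:85213653-85214211), held 28 and 57 fragments. Its summit window had 2 proneural E-boxes and another E-box next to them. A region 3565 bp from Sstr1, a somatostatin receptor gene (chr12:58207953-58208399), held 25 and 37 fragments. In each of these regions the depth was greater in cKO replicate 2, and each was 1507 to 3911 bp from the nearest Ctrl peak.

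The remaining regions of the 10 best had 19 to 26 fragments in cKO replicate 1 and 22 to 44 in cKO replicate 2. A region in an intron of the non-coding gene Gm16046 (chr17:13681033-13681420), 79232 bp from Afdn, which encodes the adherens junction adaptor afadin, held 26 and 44 fragments, and its summit window contained 4 E-boxes, 2 of them proneural. Other intronic regions lay in Tenm2, a teneurin adhesion gene (20 and 23 fragments), and in the non-coding gene Gm28050, 69506 bp from the homeobox gene Barhl2 (19 and 23 fragments). The regions nearest to Gm9376 (22 and 26 fragments) and Mtpn (22 and 22 fragments) were intergenic, and the latter was repeat-masked over 58.5% of its bases. Barhl2 was the nearest protein-coding gene of 3 cKO-only regions, the most for any gene.

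**Figure D1:**
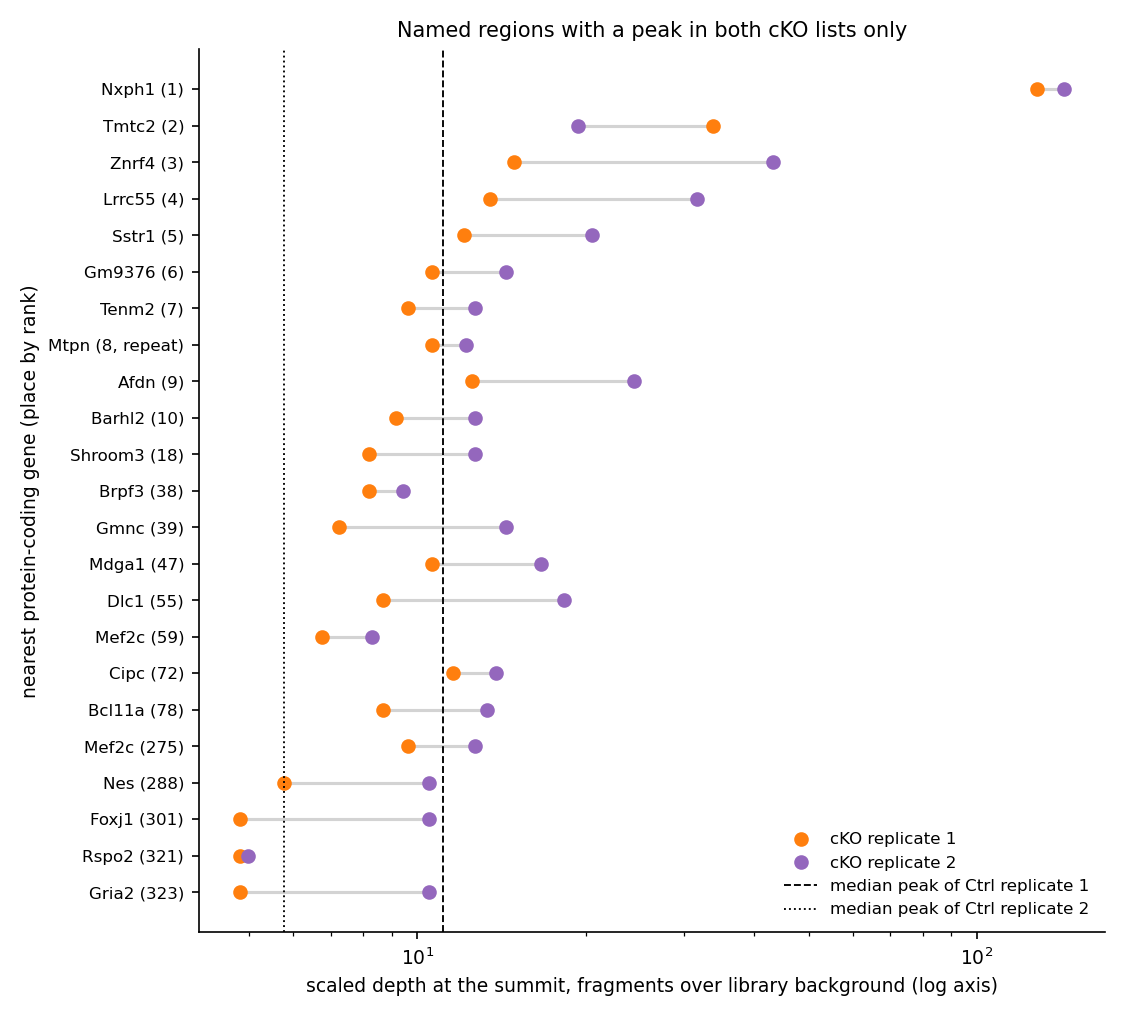
Scaled depth at the summit (fragments divided by the lowest background of the library, log axis) in cKO replicate 1 and cKO replicate 2 for 23 named cKO-only regions that are less than 90% repeat-masked, each labelled by its nearest protein-coding gene and its place by rank. The regions in places 1 to 5, and those near Afdn and Cipc, lie above the median peak of Ctrl replicate 1 (11.1, dashed) in both replicates.

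Regions at promoters of protein-coding genes were not among the strongest. The best of these overlapped the promoter of Shroom3, whose product constricts the apical surface of neuroepithelial cells, 103 bp from the TSS (chr5:92897646-92898056), with 17 fragments in cKO replicate 1 and 23 in replicate 2. It was in place 18 by rank and overlapped a CGI. Brpf3, which encodes a scaffold of a histone acetyltransferase complex, had a region 372 bp from its TSS with 17 and 17 fragments. Gmnc, a regulator of multiciliated cell formation, had a region 234 bp from its TSS (chr16:26989581-26990015) with 15 and 26 fragments, and the nearest Ctrl peak lay 81574 bp away. Of these genes, Shroom3 alone had a CGI in the region.

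The next promoter regions belonged to Mdga1, a synaptic adhesion gene (22 and 30 fragments), Dlc1, which encodes a GTPase-activating protein (18 and 33 fragments), and Cipc, a repressor of the circadian clock (24 and 25 fragments). The Cipc region was 145 bp from a Ctrl peak. In all, 38 cKO-only regions had a summit within 2 kb of a protein-coding TSS (9.67%), against 51 of the 257 Ctrl 1 and cKO 1 regions (19.8%) and 23.6% of all autosomal regions. The 95% Wilson intervals of the shares in these 2 patterns (7.13 to 13.0% and 15.4 to 25.1%) did not overlap. They cover counting error only and are no test of genotype, since regions of 1 library are not replicates. Among the 38, those of Nog, which encodes a bone morphogenetic protein antagonist (13 and 15 fragments), Lhx9 (15 and 28 fragments) and Nfix (21 and 29 fragments) were picked out after their values were seen. They lay 391, 653 and 3367 bp from the nearest Ctrl peak, in that order.

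Like regions of the other sets, most cKO-only regions lay outside promoters. Their summits lay within 2 kb of any annotated TSS in 16.5% (65 of 393, 95% Wilson interval 13.2 to 20.5%), in introns in 40.2% and between genes in 40.7%. Introns held 40.5% of the Ctrl 1 and cKO 1 regions and 35.1% of all autosomal regions, and intergenic sequence 34.6% and 34.0%. The corresponding promoter share was 23.7% (18.9 to 29.3%) in the Ctrl 1 and cKO 1 regions, 47.1% in the 14834 regions with a peak in both cKO lists and Ctrl replicate 1, and 28.6% in all autosomal regions. The interval of the cKO-only share overlaps that of the Ctrl 1 and cKO 1 regions and lies below the value of all autosomal regions. The median distance to a TSS was 16735 bp in the cKO-only regions and 14343 bp in the Ctrl 1 and cKO 1 regions. Intervals cover counting error only, and regions of 1 library are not replicates.

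Few cKO-only regions lay at CGIs, the sequences that the deleted zinc finger binds. A CGI was overlapped by 23 of the 393 regions (5.85%, 3.93 to 8.63%), against 14.8% (11.0 to 19.6%) of the Ctrl 1 and cKO 1 regions, 39.9% of the regions shared with Ctrl replicate 1 and 20.4% of all autosomal regions. Of the 65 promoter regions, 19 had a CGI (29.2%), against 54.1% of promoter regions in the Ctrl 1 and cKO 1 pattern and 65.9% of promoter regions on all autosomes. The share at CGIs thus was not above that of the Ctrl 1 and cKO 1 regions. The rule leaves out every region with a Ctrl peak. A CGI with a peak in Ctrl therefore could not count here, whatever its depth in cKO, and the share does not measure change at such CGIs. With equal-size lists, cut to the 7037 strongest peaks each, the CGI share of the regions found in both cKO lists only was 13.8%. The share of the Ctrl 1 and cKO 1 regions with such lists was not computed.

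**Figure D2:**
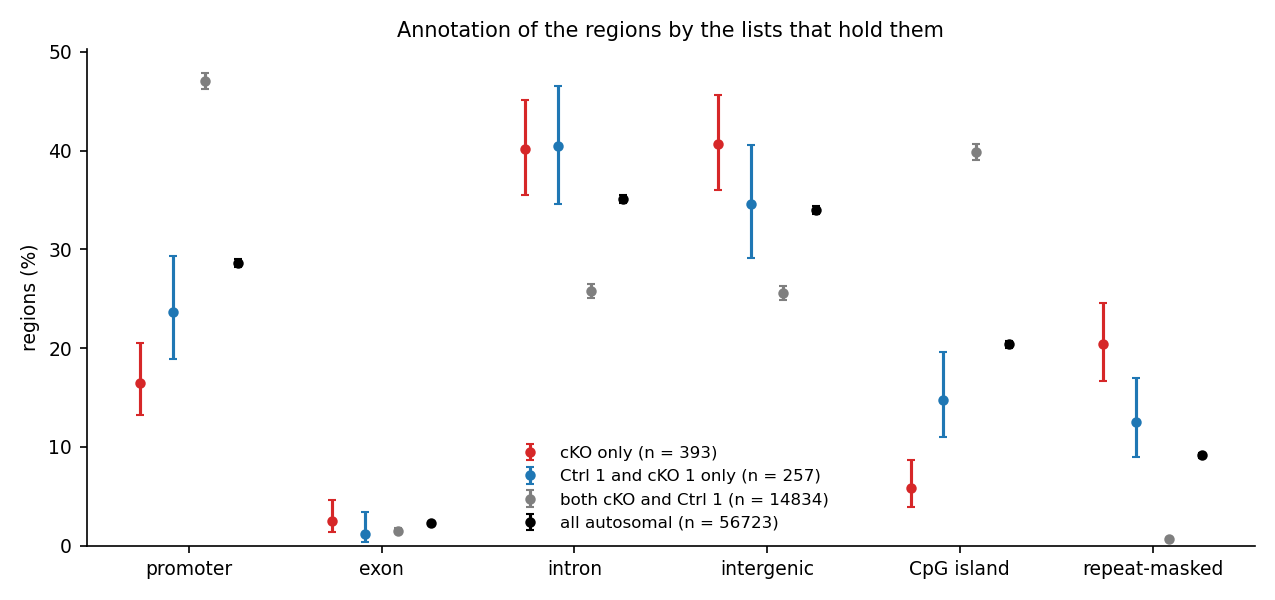
Percent of regions by annotation of the summit, by overlap with a CGI and by repeat masking, for the cKO-only regions (393), the Ctrl 1 and cKO 1 only regions (257), regions with a peak in both cKO lists and Ctrl replicate 1 (14834) and all autosomal regions (56723), with 95% Wilson intervals. CGIs were overlapped by 5.85% of the cKO-only regions and 14.8% of the Ctrl 1 and cKO 1 regions, and 20.4% and 12.5% were repeat-masked.

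Repeat-masked sequence took part of the cKO-only regions, a share that moved with the peaks used. Of the 393, 80 were repeat-masked (20.4%, 16.7 to 24.6%), against 12.5% (8.96 to 17%) of the Ctrl 1 and cKO 1 regions, 0.634% of the regions shared with Ctrl replicate 1 and 9.16% of all autosomal regions. At least 10 copies of the summit window (90% identity over 80% of its length) were found in the genome for 63 of the 80, against 9 of the other 313. Repeat-masked regions were wider (median 686 bp against 399 bp) and weaker in cKO replicate 2 (median rank percent 89.6 against 61.5, where 100 is the weakest peak of the list). The intervals of the cKO-only and the Ctrl 1 and cKO 1 regions overlapped slightly. Of the cKO-only regions found among peaks with a deposited −log10 q of at least 5, 13.1% were repeat-masked, and with equal-size lists 0.877%, in sets that overlapped 89 and 3 of the 393. Without repeat-masked peaks in any list, 323 cKO-only regions were found.

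Most cKO-only regions were weak peaks, more so in cKO replicate 1. Median depth at the summit was 13 fragments in cKO replicate 1 and 16 in replicate 2, with a range of 9 to 266 and 8 to 258. Their median rank percent was 82.7 and 67.5 in these lists, and 358 of the 393 (91.1%) were weaker than the median peak of the cKO replicate 1 list by rank, against 292 (74.3%) in the list of replicate 2. The Ctrl 1 and cKO 1 regions had similar ranks, with a median of 82.5 in cKO replicate 1 and 68.0 in Ctrl replicate 1. They held a median of 12 fragments in cKO replicate 1 and 14 in Ctrl replicate 1. Regions of either pattern thus came mostly from the weaker part of their lists.

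A few cKO-only regions ranked above the best of the Ctrl 1 and cKO 1 regions. The best of the latter was at the promoter of Nfkb1, an NF-kB subunit gene, with 20 fragments in cKO replicate 1 and 22 in Ctrl replicate 1 (rank percent 36.5 and 38.2), followed by a region nearest to Lrp12 (18 and 27 fragments). The cKO-only regions in places 1 to 9 had rank percents of at most 36.9 in both lists. Both peaks ranked stronger than the median of their list for 20 of the 393 and for 3 of the 257. At least 20 fragments in both libraries were found for 20 of the 393 cKO-only regions and 5 of the 257 Ctrl 1 and cKO 1 regions. Recovered depth was greater in cKO replicate 2 (17.1 M fragments) than in Ctrl replicate 1 (14.6 M), so these counts are not on 1 scale. When each list was cut to its 7037 strongest peaks, 3 of the 393 remained, namely the mitochondrial-like region and those near Znrf4 and Lrrc55, although 456 regions then had peaks in both cKO lists only. The identity of the regions therefore changed with the length of the lists, while their number did not change by more than 1.5 times. The 2 ranks of a region were related across regions (Pearson's r = 0.37 over the 393 and 0.18 over the 257), a description only, since regions share libraries.

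**Figure D3:**
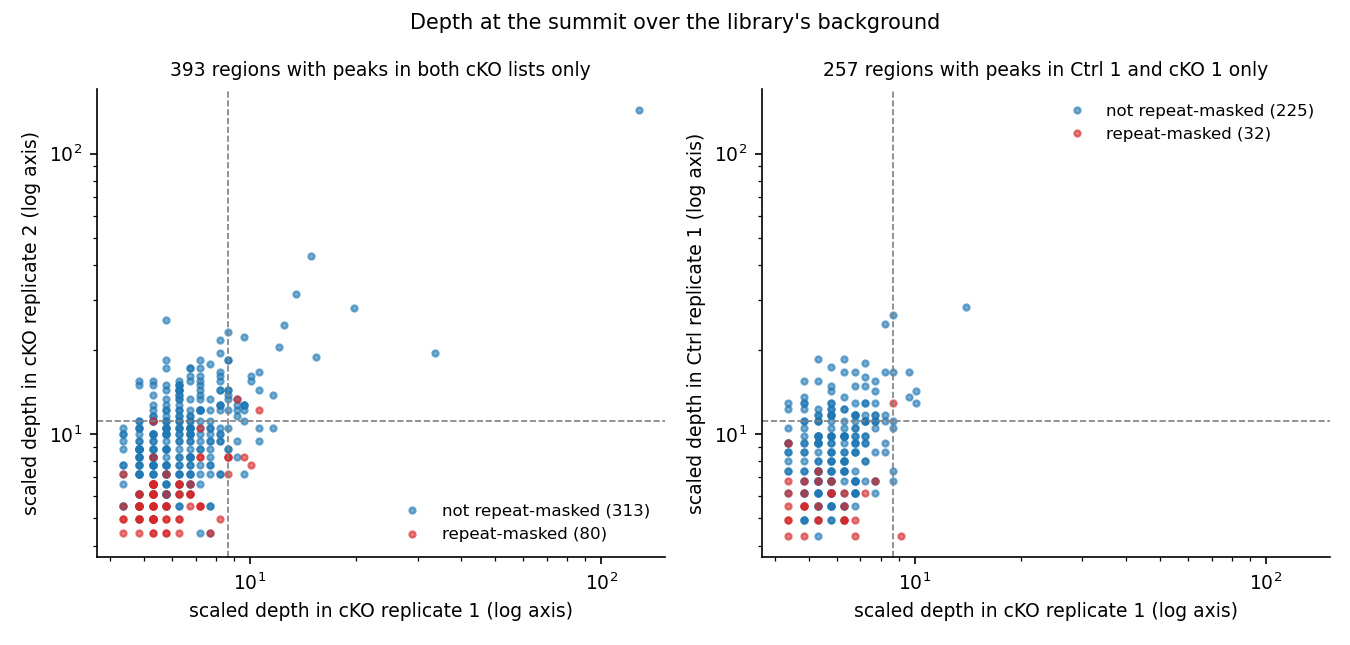
Scaled depth at the summit of each cKO-only region (left, cKO replicate 1 against cKO replicate 2) and each Ctrl 1 and cKO 1 only region (right, cKO replicate 1 against Ctrl replicate 1), on log axes, with dashed lines at the median peak of each list. Most of both sets lie below the medians (8.68 in cKO replicate 1, 11.1 in the other 2 lists), repeat-masked regions (red) lie toward the weak end, and the point at the upper right of the left panel is the mitochondrial-like region.

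Depth was also expressed relative to background, although this does not put the libraries on 1 scale, since the median peak of a list stood at 5.77 to 11.1. Scaled depth was the number of fragments at the summit divided by the lowest background of that library, and its median over the cKO-only regions was 6.27 in cKO replicate 1 and 8.86 in the other cKO library. The weakest peak called at that background stood at 4.32 in Ctrl replicate 1 and 3.46 in Ctrl replicate 2. Of the peaks in Ctrl replicate 1, 15.2% stood at or below 6.27 and 37.0% at or below 8.86, and of those in Ctrl replicate 2, 57.4% and 79.6%. A scaled depth of that size was within the range of either Ctrl list, and the depth of Ctrl libraries at the regions themselves was not analysed here. Scaled depth was higher in cKO replicate 2 than in cKO replicate 1 for 329 of the 393 (83.7%), and for 93.9% of the 18742 regions that the cKO lists shared.

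Peaks of the 2 cKO replicates coincided within the regions about as closely as those of the mixed pair. Summits were a median of 76 bp apart, and 235 of 393 (59.8%) were within 100 bp, against 79 bp and 59.9% in the Ctrl 1 and cKO 1 regions. The median width was 425 bp, against 444 bp in the Ctrl 1 and cKO 1 regions, 696 bp in regions shared with Ctrl replicate 1 and 475 bp on all autosomes. Widths ranged from 200 to 1958 bp, and 23 of the 27 regions over 1000 bp were repeat-masked.

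Some cKO-only regions lay beside a Ctrl peak. A Ctrl peak was within 500 bp of 32 regions (8.14%) and within 10 kb of 197 (50.1%), with a median distance of 9960 bp. The Ctrl 1 and cKO 1 regions were a median of 12646 bp from a peak of the lists that lacked them, and 5.45% were within 500 bp. At the boundary of the rule, the closest cKO-only regions lay 10 bp (Ptk7 promoter), 21 bp (Tnik intron) and 54 bp (1110065P20Rik promoter) from a Ctrl peak. Just outside it, a Ctrl replicate 1 peak overlapped by 1 bp near Cdk6, 58 bp near Nrbf2 and 70 bp near Cast.

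**Figure D4:**
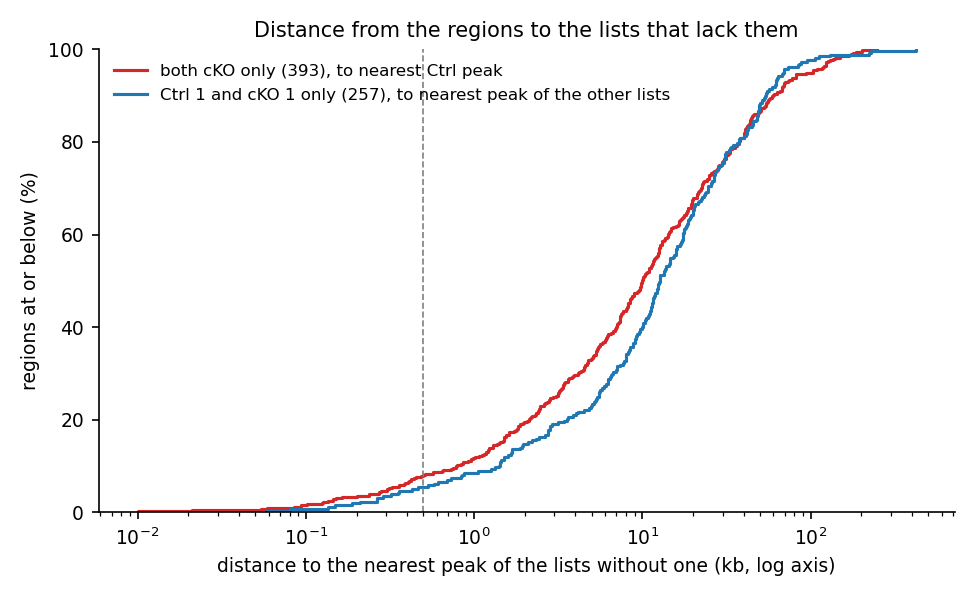
Cumulative percent of regions by distance to the nearest peak of the lists without one (kb, log axis), with a dashed line at 0.5 kb. The curve of the 393 cKO-only regions runs above that of the 257 Ctrl 1 and cKO 1 only regions over most of its lower range, with 8.14% and 5.45% of regions within 500 bp.

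The E-box letters CANNTG and CAGATG, though not the palindrome CAGCTG, were present in a larger share of the cKO-only regions than of all other sets. The letters CAGATG, on either strand, were present within 100 bp of the summit in 118 of 393 (30.0%, 25.7 to 34.7%), against 23.0% (18.2 to 28.5%) of the Ctrl 1 and cKO 1 regions, 19.5% of the regions shared with Ctrl replicate 1 and 21.6% of all autosomal regions. Any E-box (CANNTG, which includes CAGATG) was present in 77.1% (72.7 to 81.0%), 68.5% (62.6 to 73.9%), 63.5% and 67.6%. The intervals of the cKO-only and the Ctrl 1 and cKO 1 shares overlap for both. Without repeat-masked regions the shares with CAGATG were 31.9% and 22.7%, an alternative chosen after seeing the data. The median GC content of the windows was 50.2% and 49.3%, and their median CpG ratio (observed over expected CpG) was 0.206 and 0.282. Whether sequence composition or position relative to promoters accounts for the E-box shares was not tested.

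The other letters searched are given as shares of the cKO-only regions, of the Ctrl 1 and cKO 1 regions and of all regions. The palindrome CAGCTG was present in 17%, 12.8% and 17%, and the NFI letters TTGGCA in 23.7%, 20.6% and 22.3%. The letters CTTTGA, bound by the TCF/LEF effectors of canonical Wnt signalling, were present in 9.92% of the cKO-only regions, 12.1% of the Ctrl 1 and cKO 1 regions and 10.7% of all regions. The homeodomain letters TAATTA were present in 7.38%, 13.2% and 9.08%, and the SP/KLF letters GGGCGG in 6.87%, 12.8% and 17%. The CTCF core AGGGGGC was present in 3.05%, 3.89% and 5.45%. Shares for the SOX letters ACAATNG were 7.12%, 7.0% and 6.39%, for the AP-1 letters TGANTCA 4.07%, 4.28% and 5.64%, and for the RFX letters GTTGCCA 3.56%, 3.50% and 4.39%. The octamer ATGCAAAT was present in 1.27%, 1.56% and 1.72%, the NRF1 letters GCATGCGC in 0.254%, 0% and 1.20%, and the cyclic AMP response element TGACGTCA in 0%, 0% and 0.897%, where 0 of 393 allows up to 0.968%. All were searched on both strands. A match describes these letters in the window and no binding was measured.

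**Figure D5:**
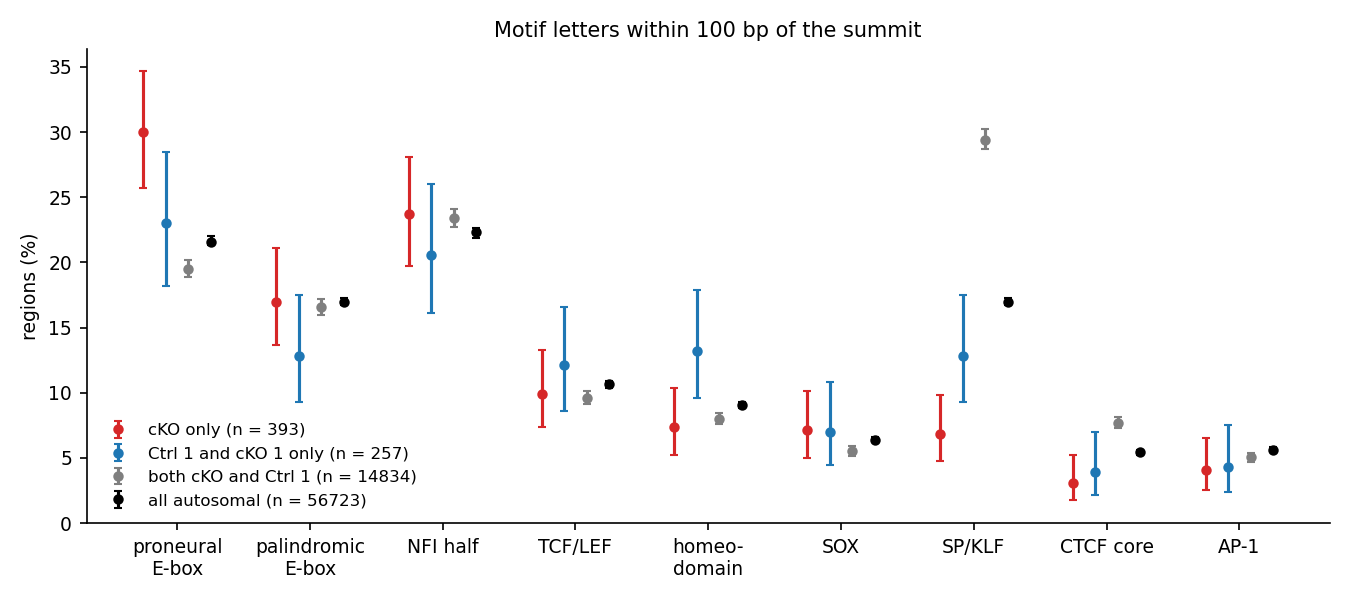
Percent of regions with the letters of 9 motifs (either strand) within 100 bp of the summit, in the same 4 sets of regions, with 95% Wilson intervals. The proneural E-box CAGATG was present in 30.0% of the cKO-only regions and 21.6% of all autosomal regions, and SP/KLF letters in 6.87% and 17%.

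Genes of Wnt signalling, which guides hippocampal development, are nearest to few regions in any set. None of the 19 ligands, 15 receptors or 12 antagonists was the nearest protein-coding gene of a cKO-only region, and of the 24 signal transduction and target genes only Rspo2, which encodes an R-spondin that enhances Wnt signalling, was. Over all autosomal regions, a ligand was nearest to 0.122%, a receptor to 0.180%, an antagonist to 0.0793% and a gene of the last list to 0.205%, against 0.254% of the cKO-only regions for that list. With shares this low, nothing is read from the counts among 393 regions. The Rspo2 region lay 666 bp from the TSS (chr15:43169915-43170280) and overlapped a CGI, with 10 fragments in cKO replicate 1 and 9 in replicate 2. It was in place 321 by rank and lay 281 bp from a Ctrl peak. None of the 32 Polycomb genes and none of the 17 interneuron genes was nearest to a cKO-only region, where these were nearest to 0.183% and 0.138% of all autosomal regions.

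Hippocampal neuron and progenitor genes accounted for a few regions. A hippocampal neuron gene was nearest to 0.763% of the cKO-only regions and 0.490% of all autosomal regions, against 0% of the Ctrl 1 and cKO 1 regions. For the progenitor list these shares were 0.509%, 0.402% and 0.778%. With so few regions, nothing is read from these shares. The transcription factor gene Mef2c was nearest to 2 regions. The first lay at 22485 bp (chr13:83481447-83481695, 14 and 15 fragments, with 3 E-boxes at the summit). The other lay at 160532 bp (20 and 23 fragments), in an exon within the overlapping genes Gm33366 (non-coding) and C130071C03Rik. Bcl11a, another transcription factor gene of these neurons, was 284864 bp from a region with 18 and 24 fragments. Nes, which encodes the intermediate filament nestin of neural progenitors, had a region at its CGI promoter, 23 bp from the TSS (chr3:87970840-87971429, 12 and 19 fragments).

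Of the synaptic genes, the AMPA receptor gene Gria2 was 268695 bp from a region with 10 and 19 fragments. The regions nearest to the kainate receptor gene Grik2 (14 and 12 fragments) and the scaffold gene Dlg2 (11 and 9 fragments) lay entirely in repeat-masked sequence. The synapse and channel list was nearest to 0.763% of the cKO-only regions, 0.778% of the Ctrl 1 and cKO 1 regions and 0.649% of all autosomal regions, so these 3 regions are near the general share. Foxj1, a regulator of motile cilia, was 25743 bp from a region in an intron of Rnf157 with 10 and 19 fragments, whose summit window had 4 copies in the genome. Its list (glia, vessel and choroid plexus genes) was nearest to 0.509% of the cKO-only regions and 0.157% of all autosomal regions. The share was 0.778% of the Ctrl 1 and cKO 1 regions, and nothing is read from such low counts. Over all 10 lists (218 genes), 10 genes were nearest to 11 cKO-only regions (2.80%), against 3.89% of the Ctrl 1 and cKO 1 regions and 2.59% of all autosomal regions.

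The cKO-only regions were spread over the genome. They lay on all 19 autosomes, from 1.27% on chromosome 19 to 8.14% on chromosome 3, where all autosomal regions had 2.58% and 6.07%. Of the 393, 2 lay within 10 kb of another. The 393 regions had 375 different nearest protein-coding genes, and 17 genes were nearest to more than 1. No cKO-only region lay in Kdm2b or Emx1 or within 50 kb of them. Within 10 Mb of Kdm2b there were 4 (1.02%, against 1.14% of all regions), and within 10 Mb of Emx1, whose control sequences drive the Cre, there were 6 (1.53%, against 0.885%).

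The share of a pair's regions that were found nowhere else differed widely between pairs of libraries. The cKO lists shared 18742 autosomal regions, of which 393 (2.10%) were in no Ctrl list, while cKO replicate 1 and Ctrl replicate 1 shared 18307, of which 257 (1.40%) were in neither other list. The share was higher than that of the cKO pair in the remaining 4 pairs, with 4.63% for the Ctrl lists, 9.58% for the second replicates, 12.5% for Ctrl 2 and cKO 1 and 46.2% for Ctrl 1 and cKO 2. With peaks of a deposited −log10 q of at least 5, the cKO pair had 1.54% and the pairs across genotypes 0.777 to 49.2%. With equal-size lists it had 8.75%, and those pairs 0.509 to 23.0%. The cKO pair therefore lay within the range of the pairs across genotypes each time. The lists differ in length, and these differences were not tested.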

How the data were processed

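According to the methods of the study, reads were trimmed (Cutadapt) and mapped to mm10 (Bowtie2) by the authors. They then removed blacklisted regions, mitochondrial reads and PCR duplicates, corrected for the Tn5 offset and called peaks with MACS2 2.2.7.1. A separate list was deposited for each library, and the stated MACS2 parameters name no control. Weak or repetitive sites may depend on these filters, which was not tested. The deposited lists give a score (not used), the fold enrichment over local background, −log10 p-values, −log10 q-values and the summit offset, all as the authors' MACS2 run wrote them. Peaks were ranked within a list by −log10 p (the eighth column). Fragments at a summit were recovered from the fold and the −log10 p-value, with a whole number fitting within 0.01 for 99.75% of the 793 peaks in the cKO-only regions. These depths rest on MACS2's formula and were not checked against reads. Positions are 1-based in mm10. GENCODE M21 basic (55450 genes) and GRCm38.p6 gave annotation and repeat masking. Nearest genes for the gene lists were protein-coding. A promoter was 2 kb on either side of a TSS. CGIs (16106) were computed with repeat-masked bases left out, at lengths of at least 200 bp, GC of at least 50% and a CpG ratio of at least 0.6. Matches in the genome were found with blastn 2.17.0. The scripts ran in Python 3.11.15, and the recovery of fragments and the merging were tested on simulated data.

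The regions, gene lists and motifs were chosen with earlier results of these data known. Regions named in the text were, by the worse of their 2 rank percents, the 10 best, the 6 best at protein-coding promoters, the 6 best distal and not repeat-masked, the 10 best nearest to a listed gene and those at the boundary of the rule. Other regions, such as those of Nog, Lhx9 and Nfix, were chosen after their values were seen. Some of these are not reported here. No test was made, because regions were chosen by presence in the 4 lists. Shares have 95% Wilson intervals. Alternatives were the q-value, list length, merging distance, chromosomes, repeat masking, overlap, promoter and CGI definitions, and leaving out each library.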

Additional observations from a re-analysis of the deposited data

How the results depend on the processing

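No paired analysis was possible because the results come from no test. Leaving the single-library omissions aside, 25 of 36 values stayed within 1.5 times (counts) or within the 95% interval of the reported value (for the median width, 410 to 447 bp from order statistics). With −log10 q of at least 5, 214 cKO-only and 105 Ctrl 1 and cKO 1 regions were found, 89 of the 393 overlapping the 214, with 12.6% at promoters, 13.1% repeat-masked and a median width of 450 bp. With equal-size lists, 13.8% of the cKO-only regions overlapped a CGI, 0.877% were repeat-masked and the median width was 641 bp. The median width was 403 bp without repeat-masked peaks. A promoter of 1 kb gave 11.7%, and masking of at least 80% gave 16.3%. The cause of these shifts was not tested.

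Leaving out 1 library at a time, the number of cKO-only regions ranged from 855 (without Ctrl replicate 2) to 15239 (without Ctrl replicate 1), with 8400 without cKO replicate 1 and 1073 without cKO replicate 2. The Ctrl 1 and cKO 1 regions ranged from 416 to 15086, more than the cKO-only regions without cKO replicate 1 (11006) or cKO replicate 2 (15086). Over the omissions, promoters ranged from 10.3 to 46.3%, CGIs from 2.92 to 39.0%, repeat-masked regions from 1.16 to 54.6% and median width from 279 to 639 bp. Each omission asks for presence or absence in fewer lists, so more regions qualify. The lists hold only peaks past each library's own threshold, from 7 to 12 fragments over the lowest background, so weaker accessibility in Ctrl was not detectable.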

Other observations

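On the X and Y chromosomes, which the rule leaves out, 13 regions had a peak in both cKO lists only, all on X. There were 3 such regions for Ctrl replicate 1 and cKO replicate 1 and 16 for both Ctrl lists, 7 of the latter on Y. The sex of the samples is not given.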
